A study of Homo sapiens with 8 samples.

Results

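The 34 genes described here act in homologous recombination and in the Fanconi anemia pathway, and were followed by RNA-seq in 2 human uveal melanoma cell lines in which the level of the cytidine deaminase APOBEC3B (A3B) had been changed. The genes were taken by symbol from a list of the pathway, which was set with earlier results of these data known. All 34 of 34 symbols were among the 19952 listed in each library, and all 34 passed the filter on low values in every comparison. In 92.1 cells, 2 libraries with shCtrl were compared with 2 libraries with shA3B. In MEL290 cells, 2 libraries with NC were compared with 2 libraries with A3B OE, which makes 8 libraries in 4 groups. Per the methods, short hairpin RNAs against A3B were carried in the pGIPZ-TurboGFP-puro vector and full-length A3B in pHAGE-puro, both as lentivirus followed by puromycin selection, and the 92.1 control carried empty vector. Which hairpin was used, and what NC carried, is not given in the sources used here. The design asks whether raising or lowering A3B goes with a change in these genes. The labels do not say whether the 2 libraries of a group came from separate cultures, so p-values measure only the spread between these libraries.

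Homologous recombination repairs a DNA double-strand break by copying an intact sister molecule. The break end is first resected to single-stranded DNA, BRCA2 and its partners then prepare this DNA for pairing with the sister molecule, and the joined molecules are finally dissolved or cut. The Fanconi anemia pathway deals with crosslinks between the DNA strands and with stalled forks. Its core complex, with the conjugating enzyme UBE2T, attaches ubiquitin to the FANCI-FANCD2 pair, which brings in nucleases, and the repair is completed by homologous recombination. Several of the genes serve both pathways, and many are known to be transcribed mainly in cells that replicate their DNA.

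Values were FPKM, a fragment count scaled to transcript length and to library size, so levels can be compared between genes. A gene was called when limma on log2(FPKM + 1), fitted over all genes tested in the comparison, gave a Benjamini-Hochberg adjusted p under 0.05. Depth could be estimated only roughly, at 17800000 to 32400000 fragments per library, and the NC libraries were the shallowest. Replicates correlated at 0.987 to 0.990 on the log2 scale across genes. A3B had the level its labels give in each library, with 35.9 and 32.3 FPKM in shCtrl, 1.98 and 2.37 in shA3B, 2.67 and 2.19 in NC and 28.4 and 27.5 in A3B OE. The 10 melanocyte markers were all at 1 FPKM or more in 92.1, with a sum of 7191 to 8802 FPKM. MEL290 showed few of them: their sum was 24.2 to 40.5 FPKM, 3 to 5 of the 10 were listed at 0, and SOX10, a melanocyte lineage factor, was listed at 0 in both NC libraries, while MITF and RAB27A were above 1 FPKM in all 4. The 7 epithelial markers summed to 1680 to 2584 FPKM in MEL290, nearly all of it the keratins KRT8 and KRT18, against 3.75 to 5.67 FPKM in 92.1. The label of uveal melanoma cells was therefore not borne out by the melanocyte markers in MEL290. Fibroblast markers summed to 44.1 to 60.9 FPKM in MEL290 and to 6.23 to 8.59 in 92.1, and immune markers to 14.7 to 35.0 FPKM over all libraries.

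**Figure D1:**
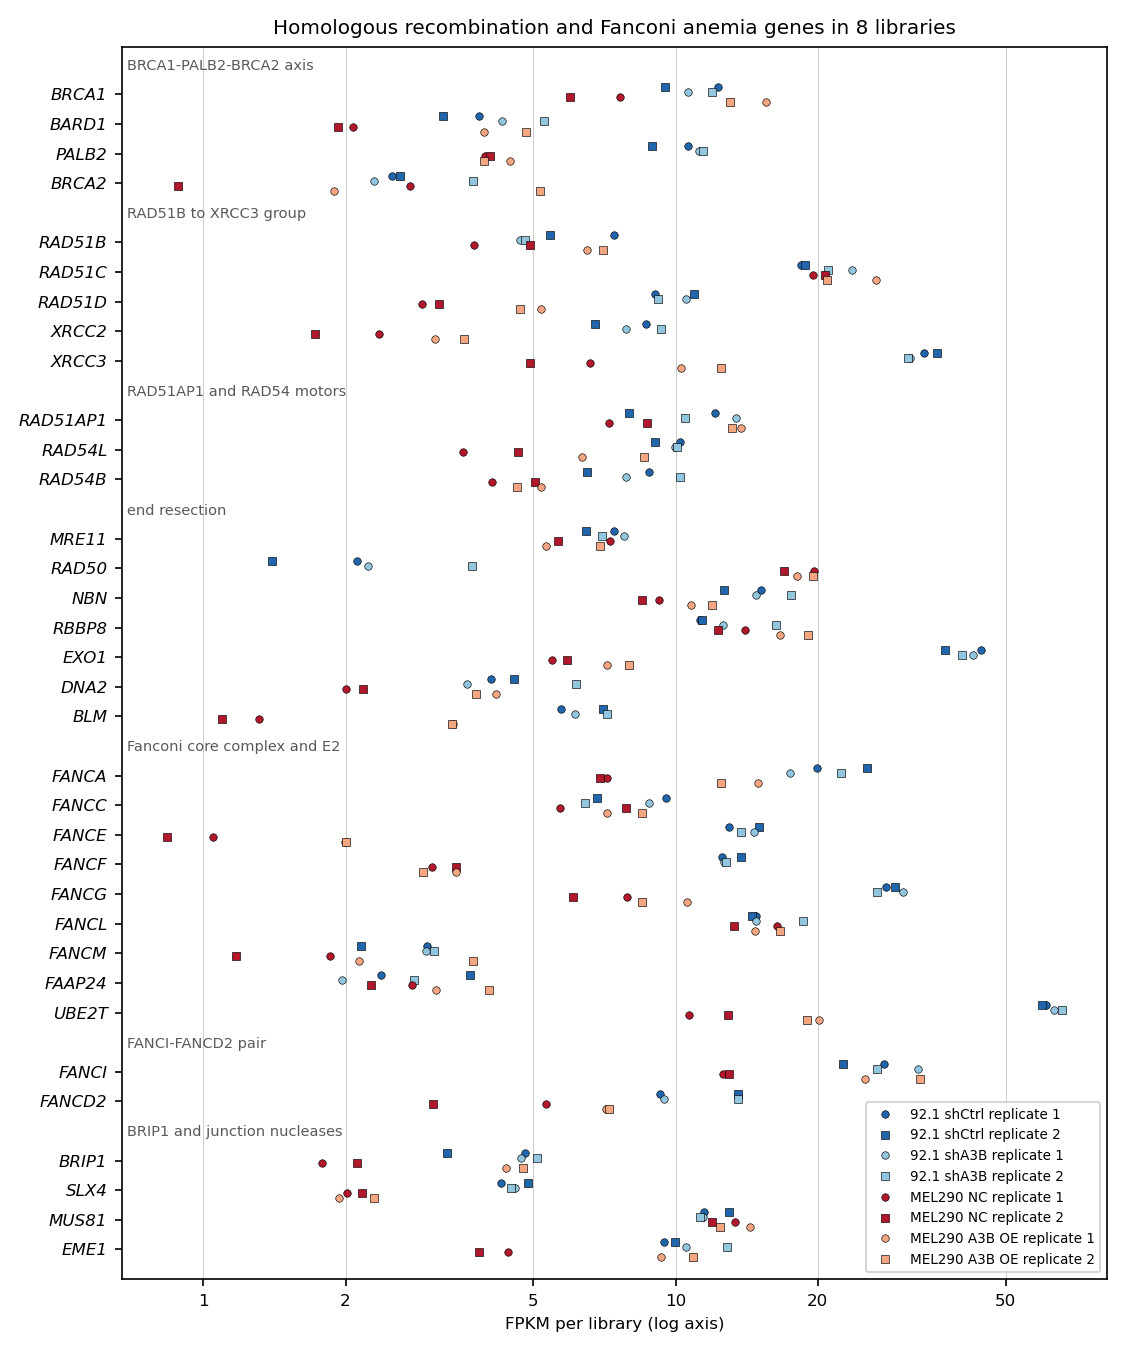
FPKM of each of the 34 genes in the 8 libraries, on a log axis, grouped by role, with 1 point per library (circle for replicate 1, square for replicate 2; dark blue for 92.1 shCtrl, light blue for 92.1 shA3B, dark red for MEL290 NC, orange for MEL290 A3B OE). The MEL290 NC points lie to the left of the A3B OE points for 24 of the 34 genes, the 2 groups of 92.1 lie close together, and RAD50 is the gene far lower in 92.1 than in MEL290.

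In MEL290, 14 of the 34 genes were higher with A3B OE, none was lower and 20 were not called. The genes called were BRCA1 and BARD1, RAD51D and XRCC3, RAD51AP1 and RAD54L, the resection and dissolution genes DNA2 and BLM, FANCA, FANCE and UBE2T of the core complex step, FANCI, BRIP1 and EME1. Among the 11611 genes that passed the filter, the share higher was 10.3% and the share lower 7.49%, or 17.8% together. The log2 fold changes of the 34 genes ran from -0.07 to 1.11 with a median of 0.55, against a median of 0.004 over all genes, and 32 of the 34 were above 0. Both A3B OE libraries were above both NC libraries for 24 genes and below both for none, where 31.5% and 29.7% of all genes tested did so. At an unadjusted p under 0.05 there were 21 genes, against 33.1% of all genes. In bulk RNA, more cells that express a gene and more RNA of it per cell cannot be told apart.

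BRCA1 and BARD1 form a ubiquitin ligase that promotes recombination at breaks, PALB2 is the bridge to BRCA2, and BRCA2 acts on the resected DNA. BRCA1 was at 7.64 and 5.98 FPKM in NC (replicates 1 and 2, in that order here and in what follows) and reached 15.5 and 13.0 FPKM in A3B OE. Both A3B OE libraries were higher than both NC libraries, by 2.10-fold on mean FPKM, with a log2 fold change of 0.97 ± 0.15 (SE) and an adjusted p of 0.0112. Its partner BARD1 went the same way, from 2.07 and 1.93 FPKM in NC to 3.93 and 4.81 FPKM in A3B OE, again without overlap (log2 fold change 0.84 ± 0.15, adjusted p = 0.0161). PALB2 was at 3.94 and 4.04 FPKM in NC and 4.45 and 3.93 FPKM in A3B OE, so the groups overlapped, with a log2 difference of 0.05 ± 0.13. BRCA2 was at 2.74 and 0.882 FPKM in NC and 1.89 and 5.16 FPKM in A3B OE. The replicates of BRCA2 differed by more than the group means, and its log2 difference of 0.67 ± 0.44 had the largest SE of the 34 genes and an adjusted p of 0.346.

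The 5 related genes RAD51B, RAD51C, RAD51D, XRCC2 and XRCC3, whose products form complexes with one another that are needed for recombination, all had A3B OE libraries above the NC libraries, and 2 of the 5 were called. XRCC3 was at 6.58 and 4.92 FPKM in NC and at 10.3 and 12.5 FPKM in A3B OE, a log2 fold change of 0.88 ± 0.17 with an adjusted p of 0.0191. RAD51D was at 2.91 and 3.16 FPKM in NC and at 5.19 and 4.69 FPKM in A3B OE (0.56 ± 0.13, adjusted p = 0.0379). Its groups did not overlap, but the call was lost with the replicate number as a block (adjusted p = 0.0727) and with quantile normalization (adjusted p = 0.0523). RAD51B came close to the threshold, with 3.74 and 4.91 FPKM in NC, 6.504 and 7.003 FPKM in A3B OE and an adjusted p of 0.0579. The log2 differences of XRCC2 and RAD51C were 0.52 ± 0.17 and 0.22 ± 0.13 and did not pass. RAD51C had the highest mean of the 34 genes in NC, with 19.5 and 20.7 FPKM, and had 26.6 and 20.9 FPKM with A3B OE.

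RAD51AP1 promotes strand invasion, and RAD54L and RAD54B are motor proteins that move along DNA. RAD51AP1 was at 7.22 and 8.72 FPKM in NC and 13.7 and 13.2 FPKM in A3B OE (0.69 ± 0.13 on the log2 scale, adjusted p = 0.0166). RAD54L was at 3.54 and 4.63 FPKM in NC and 6.34 and 8.58 FPKM in A3B OE (0.73 ± 0.19, adjusted p = 0.0447). Neither gene had overlapping groups, but RAD54L was near the threshold, with an adjusted p of 0.0559 without the trend and 0.0502 with quantile normalization. The groups of RAD54B overlapped, at 4.09 and 5.05 FPKM in NC and 5.20 and 4.61 FPKM in A3B OE, with a log2 difference of 0.09 ± 0.15.

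Of the 7 genes placed under end resection, 2 were called. BLM, a helicase that unwinds DNA ends and also dissolves joined molecules, was at 1.31 and 1.10 FPKM in NC and 3.37 and 3.36 FPKM in A3B OE. With 2.80-fold it had the largest ratio of mean FPKM of the 34 genes (log2 fold change 0.99 ± 0.14, adjusted p = 0.00932), and its A3B OE libraries were nearly equal. The nuclease and helicase DNA2 was at 2.001 and 2.17 FPKM in NC and 4.17 and 3.77 FPKM in A3B OE (0.69 ± 0.14, adjusted p = 0.0228). NBN, RBBP8 and EXO1 each had both A3B OE libraries above both NC libraries without being called. Their log2 differences were 0.33 ± 0.12 for NBN of the break sensor complex, 0.41 ± 0.12 for RBBP8 (CtIP), which starts resection, and 0.36 ± 0.12 for the long-range nuclease EXO1, with adjusted p-values of 0.107, 0.0656 and 0.105. The groups overlapped for the rest of the sensor complex: MRE11 was at 7.27 and 5.64 FPKM in NC and 5.33 and 6.93 in A3B OE, and RAD50 at 19.7 and 16.97 FPKM in NC and 18.0 and 19.6 in A3B OE.

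Of the 9 genes of the Fanconi core complex and its E2, 3 were called, which were FANCA, FANCE and UBE2T. FANCA, a large core subunit, was at 7.15 and 6.91 FPKM in NC and 14.9 and 12.5 FPKM in A3B OE (0.87 ± 0.13, adjusted p = 0.00932). UBE2T, the conjugating enzyme, was at 10.7 and 12.9 FPKM in NC and 20.1 and 19.0 FPKM in A3B OE (0.69 ± 0.12, adjusted p = 0.0156). FANCE, which ties the core complex to FANCD2, was the lowest of the 34 genes in NC, at 1.05 and 0.837 FPKM, and reached 1.998 and 2.01 FPKM in A3B OE. At this level the added 1 in log2(FPKM + 1) compressed the change, and the 2.12-fold ratio of mean FPKM became a log2 fold change of 0.63 ± 0.15 (adjusted p = 0.0372). This call too was lost with the replicate block (adjusted p = 0.0704) and with quantile normalization (adjusted p = 0.0671). FANCL, the ubiquitin ligase subunit itself, was at 16.4 and 13.3 FPKM in NC and 14.7 and 16.6 FPKM in A3B OE, with overlapping groups. FANCF had a log2 difference of -0.02 ± 0.15 and FANCC of 0.19 ± 0.17, both within the spread of the replicates. For FANCG, FANCM and FAAP24 the groups did not overlap, and the log2 differences of 0.40 ± 0.17, 0.63 ± 0.25 and 0.37 ± 0.17 had adjusted p-values of 0.153, 0.136 and 0.181.

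FANCI and FANCD2 are the clamp-like pair that the core complex marks. FANCI was at 12.6 and 13.0 FPKM in NC and 25.2 and 32.9 FPKM in A3B OE. It had the highest mean of the 34 genes in A3B OE, and its log2 fold change of 1.11 ± 0.14 (adjusted p = 0.00599) was with that of EME1 the highest. FANCD2 was at 5.32 and 3.07 FPKM in NC and 7.13 and 7.22 FPKM in A3B OE. Its A3B OE libraries were nearly equal and both above NC, but the NC libraries lay far apart, and the log2 difference of 0.69 ± 0.22 was not called (adjusted p = 0.0816).

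BRIP1 (FANCJ) is a helicase that binds BRCA1, SLX4 is a scaffold for nucleases, and MUS81 and EME1 together form an enzyme that cuts branched DNA. EME1 was at 4.41 and 3.84 FPKM in NC and 9.32 and 10.9 FPKM in A3B OE, 2.45-fold higher on mean FPKM (1.11 ± 0.14, adjusted p = 0.00576). Its catalytic partner MUS81 was at 13.3 and 12.0 FPKM in NC and 14.3 and 12.4 FPKM in A3B OE, and these groups overlapped (0.07 ± 0.12). BRIP1 was at 1.78 and 2.12 FPKM in NC and 4.37 and 4.75 FPKM in A3B OE (0.92 ± 0.14, adjusted p = 0.0109). SLX4 was at 2.01 and 2.16 FPKM in NC and 1.94 and 2.30 FPKM in A3B OE, with no separation (0.01 ± 0.15).

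**Figure D2:**
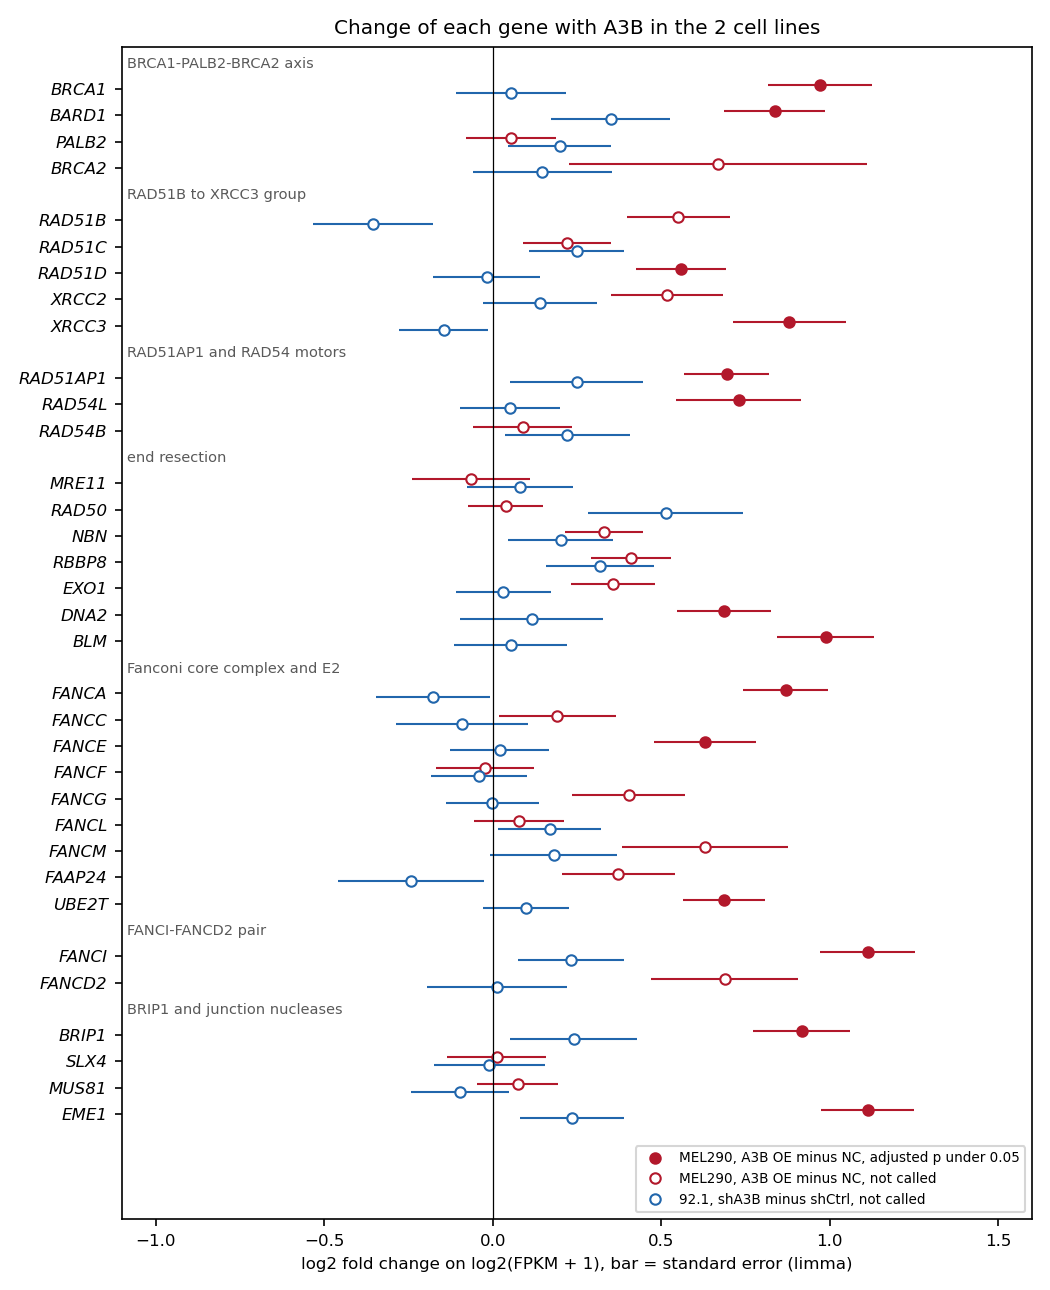
Log2 fold change of each of the 34 genes on log2(FPKM + 1), with bars of 1 standard error from limma, for MEL290 (A3B OE minus NC, red, filled where called) and 92.1 (shA3B minus shCtrl, blue). The 14 filled red points lie between 0.56 and 1.11, and none of the blue points, which lie between -0.36 and 0.51, was called.

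The count of 14 rested on both A3B OE libraries. Leaving out the first of them gave 2 genes, where 4.14% of all genes tested were then higher, and leaving out the second gave 3, where 4.21% were. Leaving out NC replicate 1 or 2 gave 18 or 14, where 10.1% and 9.9% of all genes were higher. The lone library left in a group is assumed to vary as the other group does. With no filter on low values, where 15736 genes were tested, the count was 4 (BLM, FANCA, BRIP1 and EME1), against 3.53% of all genes. Why the count fell was not tested. EME1 and FANCI were called with every library left out in turn. Of the 34 genes, 6 share over 10% of their exon bases with another gene, and the library kit does not mark the strand, so reads of such pairs could not be told apart by strand. These were XRCC3 (34.2% with KLC1), RAD54L (26.2% with LRRC41), RAD54B (65.5% with FSBP), FANCA (27.4% with ZNF276), FANCL (27.3% with VRK2) and EME1 (23.2% with LRRC59). None of the 6 partners was called in MEL290, with log2 differences between -0.20 and 0.05. Of the 14 genes called, XRCC3, RAD54L, FANCA and EME1 were among the 6, which leaves 10. This count comes from the same fit and does not test the overlap. Between the control libraries 5 of the 6 partners were called, ZNF276 higher in shCtrl (0.83) and KLC1 (-0.65), LRRC41 (-0.50), VRK2 (-0.41) and LRRC59 (-0.69) lower, which touches the levels of XRCC3, FANCA and EME1 compared between the lines further on. The 14 genes called and the 20 not called had a median transcript length of 4500 and 3728 bases, a median GC content of 43.1% and 42.1%, and a median NC level of 4.11 and 5.12 FPKM.

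Promoters were read for 30 of the 34 genes from RefSeq on GRCh38.p14, as 250 bases before to 50 bases after the start site. They were searched on both strands for 3 motifs of cell-cycle promoters. Each gene was represented by a single start site, and promoters at other start sites were not read. The BRCA1 window, chr17:43170278-43170577 on the minus strand, lies wholly upstream of the GENCODE span of BRCA1, which ends at 43170245. That window held none of the 3 motifs, which says nothing about promoters at other BRCA1 start sites. The CCAAT box, searched as CCAAT, was in 13 of the 30 (43.3%), against 36.6% of the promoters of all 15085 listed genes with one. It was in 7 of the 12 promoters of genes called in MEL290 (58.3%) and in 6 of the 18 of genes not called (33.3%). The E2F site, searched as TTTCCCGC or TTTGGCGC, was in 3 of the 30 (10%), against 3.08% of all. These were FANCD2, XRCC2 and FANCC, none of them called in MEL290. Only these exact letters were searched, so a promoter without a match can still hold another form of the site. The cell cycle homology region, searched as TTTGAA or TTCGAA, was in 4 of the 30 (13.3%), against 13.4% of all. None of the letters searched contains another of them. A match describes the letters and not binding, and no test was run on these shares.

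The promoters of XRCC3, BLM and BRIP1, the called genes with the most CCAAT boxes, are shown beside that of FANCD2, which holds an E2F match. These 4 were chosen after the values were seen. The capitals mark CCAAT or its reverse complement ATTGG in the first 3 and the E2F match in the last, and each run is written along the strand of the gene. The XRCC3 promoter lies at chr14:103715402-103715701 on the minus strand and holds 5 CCAAT boxes, 33 to 216 bases upstream of the start site. That of BLM lies at chr15:90717096-90717395 on the plus strand and holds 3, at 21, 46 and 141 bases upstream. That of BRIP1 lies at chr17:61863479-61863778 on the minus strand and holds 3, at 28, 49 and 117 bases upstream. That of FANCD2 lies at chr3:10026187-10026486 on the plus strand, and its E2F match lies 2 bases upstream of the start site. The letters GCGGGAA, which are that match without its last letter, also stand in the XRCC3, BLM and BRIP1 promoters shown.
XRCC3: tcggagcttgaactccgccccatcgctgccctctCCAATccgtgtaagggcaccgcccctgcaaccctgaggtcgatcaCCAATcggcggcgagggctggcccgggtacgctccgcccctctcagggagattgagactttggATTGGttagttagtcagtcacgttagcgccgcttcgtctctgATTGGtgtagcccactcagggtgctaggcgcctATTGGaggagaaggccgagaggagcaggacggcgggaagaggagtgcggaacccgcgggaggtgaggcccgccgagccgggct
BLM: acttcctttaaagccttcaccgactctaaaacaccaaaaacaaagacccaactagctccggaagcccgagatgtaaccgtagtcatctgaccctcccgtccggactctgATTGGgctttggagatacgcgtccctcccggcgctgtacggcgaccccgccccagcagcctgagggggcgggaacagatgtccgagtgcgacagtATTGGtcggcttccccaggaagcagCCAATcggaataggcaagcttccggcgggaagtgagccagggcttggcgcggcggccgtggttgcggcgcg
BRIP1: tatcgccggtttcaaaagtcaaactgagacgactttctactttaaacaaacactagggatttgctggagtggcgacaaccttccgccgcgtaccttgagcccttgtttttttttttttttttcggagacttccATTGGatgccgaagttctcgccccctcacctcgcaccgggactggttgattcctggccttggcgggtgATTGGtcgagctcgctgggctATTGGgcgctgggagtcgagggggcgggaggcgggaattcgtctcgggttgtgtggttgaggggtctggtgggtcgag
FANCD2: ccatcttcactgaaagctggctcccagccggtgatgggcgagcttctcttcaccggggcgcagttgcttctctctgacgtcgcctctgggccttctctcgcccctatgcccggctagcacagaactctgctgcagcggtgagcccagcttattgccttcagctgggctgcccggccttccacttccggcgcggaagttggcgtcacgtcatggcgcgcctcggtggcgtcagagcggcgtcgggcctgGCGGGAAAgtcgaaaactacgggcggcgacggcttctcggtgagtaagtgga

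Genes of the same pathways outside the list also held called members. Of 47 other homologous recombination and Fanconi genes, 45 passed the filter in MEL290, 12 were higher and 2 lower, with a median log2 difference of 0.25. RMI2 (0.90 ± 0.15), RMI1 (0.75 ± 0.13) and RTEL1 (0.69 ± 0.15) rose most, and RMI1 and RMI2 are partners of BLM in dissolving joined molecules. EME2, the alternative partner of MUS81, fell by 0.67, and BABAM2, a subunit of the BRCA1-A complex, fell by 0.55. Of 17 genes of non-homologous end joining and the 53BP1-shieldin axis, which join or protect ends without a template, 3 were higher (XRCC4 0.61, PRKDC 0.51, XRCC6 0.33) and 1 was lower (LIG4, -0.82), with a median of 0.11.

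Genes of the cell cycle were also higher in MEL290 with A3B OE. Of 25 S phase genes, 19 were higher, with a median log2 difference of 0.61, and of 25 G2/M genes, 25 were higher, with a median of 0.94. RRM2, a subunit of ribonucleotide reductase, had a log2 fold change of 1.07 ± 0.11, the replication helicase subunit MCM2 of 0.96 ± 0.10, and the proliferation marker MKI67 of 1.39 ± 0.09. The median of the 34 genes, 0.55, was below both. The part of the cell cycle genes in the result was not tested. In the same comparison the keratins KRT8, KRT18 and KRT14 fell by 0.40, 0.66 and 1.10 on the log2 scale. Of the 3 melanocyte markers tested, RAB27A rose by 1.09, while MITF (0.04) and PMEL (0.19) were not called. Their part in the result was not tested either.

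In 92.1, lowering A3B went with no called change in the 34 genes. Limma called 0 of the 34 higher and 0 lower, against 0% higher and 0.00862% lower among 11605 genes tested, since A3B itself was the 1 gene called (0.00862% in either direction). Of the 34, 1 gene, RAD50, had an unadjusted p under 0.05, against 2.9% of all genes. Log2 differences ran from -0.36 to 0.51 with a median of 0.09, and 24 of the 34 were above 0. Both shA3B libraries were above both shCtrl libraries for 7 genes and below both for 3, where 15.3% and 13.3% of all genes did so. RAD50 was at 2.11 and 1.40 FPKM in shCtrl and 2.23 and 3.71 FPKM in shA3B, a log2 difference of 0.51 ± 0.23 (unadjusted p = 0.0473, adjusted p = 0.999 by limma). The groups did not overlap, but replicate 2 of shA3B alone was far above the rest.

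At the other end, RAD51B was at 7.41 and 5.42 FPKM in shCtrl and 4.68 and 4.81 FPKM in shA3B (-0.36 ± 0.18), with both shA3B libraries below both shCtrl libraries. BARD1 was at 3.83 and 3.22 FPKM in shCtrl and 4.28 and 5.27 FPKM in shA3B (0.35 ± 0.18), with shA3B higher. None of the 4 genes with the largest log2 fold changes in MEL290 was called here. FANCI was at 27.6 and 22.6 FPKM in shCtrl and at 32.6 and 26.7 FPKM in shA3B (0.23 ± 0.16), and the groups overlapped. EME1 was at 9.47 and 9.99 FPKM in shCtrl and at 10.5 and 12.8 FPKM in shA3B (0.24 ± 0.15), with shA3B higher. The libraries of BLM were at 5.73 and 7.03 FPKM in shCtrl and 6.11 and 7.17 FPKM in shA3B (0.05 ± 0.17). Those of BRCA1 were at 12.3 and 9.49 FPKM in shCtrl and 10.6 and 11.9 FPKM in shA3B (0.05 ± 0.16). For BLM and BRCA1 the groups overlapped, and the sign changed when a trend on GC content and length was removed. UBE2T, the most abundant of the 34 genes in this line, was at 60.9 and 59.6 FPKM in shCtrl and 63.4 and 65.9 FPKM in shA3B. The S phase and G2/M lists had medians of 0.04 and 0.11, with 0 genes called in each.

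The difference between the 2 effects was tested in 1 fit over all 8 libraries, as the A3B OE minus NC difference less the shA3B minus shCtrl difference. A3B went up in the first and down in the second, so a value above 0 says only that the gene's A3B OE minus NC difference was the higher. Of the 34 genes, 4 passed, all above 0, where 4.4% of 12697 genes passed in either direction, 3.06% above 0 and 1.35% below. They were XRCC3 (1.03 ± 0.20, adjusted p = 0.0332), BLM (0.94 ± 0.20, 0.0401), FANCA (1.05 ± 0.23, 0.0456) and EME1 (0.88 ± 0.19, 0.0467). XRCC3 and FANCA had log2 differences of -0.15 and -0.18 in 92.1, opposite in sign to those in MEL290, while BLM and EME1 had 0.05 and 0.24. At an unadjusted p under 0.05 there were 13 of the 34, against 19.9% of all genes. BRCA1 and FANCI, called in MEL290 and not in 92.1, did not pass the test in this form (0.92 ± 0.23 and 0.88 ± 0.23, adjusted p = 0.0719 and 0.0741). The count of 4 fell to 0 or 1 whenever any 1 of the 8 libraries was left out, where 0.819% to 1.54% of all genes were above 0 and called. It was 0 with no filter (1.43% of all genes), 1 with quantile normalization (2.95%) and 1 with the replicate number as a block (1.24%). The effect of 92.1 was also taken as shCtrl minus shA3B, so that each effect was A3B-high minus A3B-low, and the difference between the effects was tested again. In this form 7 genes were called, all above 0, against 3.59% of all genes. A value above 0 then says that the A3B-high minus A3B-low difference was higher in MEL290 than in 92.1. It does not say that the gene was higher with A3B in both lines. Of the 4, BLM and EME1 were among these 7, with BARD1, BRCA1, BRIP1, FANCI and UBE2T, while XRCC3 and FANCA were not (0.73 and 0.69, adjusted p = 0.0796 and 0.131).

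The control libraries of the 2 lines differed in the level of these genes. Between the control libraries, 22 of the 34 genes were higher in 92.1 shCtrl, 1 was lower and 11 were not called, where 39.3% of 12352 genes were higher, 33.7% lower and 73.0% called in all. The median log2 difference was 0.77, against 0.08 over all genes. Both shCtrl libraries were above both NC libraries for 24 genes and below both for 3, against 46.6% and 40.7% of all genes, and 24 genes had an unadjusted p under 0.05, against 75.5%. Cell line and vector cannot be told apart in this comparison. The median over the 34 genes of their mean level was 9.89 FPKM in shCtrl, 11.3 in shA3B, 4.45 in NC and 7.32 in A3B OE.

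FANCE had the largest difference, with 13.0 and 15.003 FPKM in shCtrl against 1.05 and 0.837 FPKM in NC (2.95 ± 0.15 on the log2 scale, adjusted p = 2.93e-05). EXO1 was at 44.3 and 37.2 FPKM in shCtrl and 5.46 and 5.88 FPKM in NC (2.64 ± 0.13, adjusted p = 2.99e-05). XRCC3 was at 33.5 and 35.7 FPKM in shCtrl and 6.58 and 4.92 FPKM in NC (2.41 ± 0.15, adjusted p = 7.13e-05). In these 3 genes the lines were apart by many times the spread of their replicates. UBE2T, at 60.9 and 59.6 FPKM in shCtrl and 10.7 and 12.9 in NC, was the most abundant of the 34 genes in 92.1. In shCtrl EXO1, XRCC3, FANCG and FANCI followed. FANCG, FANCI and FANCA were at 28.5 ± 0.921, 25.1 ± 3.57 and 22.7 ± 3.92 FPKM (mean ± SD, n = 2) in shCtrl, so each differed from the next in that order by less than the larger of their SDs. In NC the order of means was led by RAD51C, RAD50 and FANCL, at 20.1 ± 0.802, 18.3 ± 1.90 and 14.8 ± 2.18 FPKM, and of these RAD51C and RAD50 differed by less than the SD of RAD50.

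RAD50 was the 1 gene lower in 92.1. It was at 2.11 and 1.40 FPKM in shCtrl and 2.23 and 3.71 FPKM in shA3B, and at 19.7 and 16.97 FPKM in NC and 18.0 and 19.6 FPKM in A3B OE, so that all 4 libraries of 92.1 were below all 4 of MEL290. The log2 difference between the controls was -2.82 ± 0.18 (adjusted p = 6.99e-05). Its partners MRE11 and NBN did not follow: MRE11 was at 7.39 and 6.46 FPKM in shCtrl and 7.27 and 5.64 FPKM in NC, and NBN at 15.2 and 12.7 FPKM in shCtrl and 9.21 and 8.48 FPKM in NC, higher in 92.1 (0.60 ± 0.14, adjusted p = 0.0105). In 92.1 RAD50 was thus listed below MRE11 and NBN, and in MEL290 above them. The RAD50 gene lies on chromosome 5 at chr5:132556019-132646349 (GENCODE release 44, GRCh38, plus strand), and none of its exon bases was shared with another listed gene.

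Most of the genes of the other steps were higher in 92.1. PALB2 was at 10.6 and 8.92 FPKM in shCtrl against 3.94 and 4.04 in NC (1.10 ± 0.14), and the 4 genes of the group from RAD51B to XRCC3 other than RAD51C were all above 0, of which XRCC2 (1.52 ± 0.18), RAD51D (1.45 ± 0.15) and XRCC3 were called. BLM was at 5.73 and 7.03 FPKM in shCtrl against 1.31 and 1.10 in NC (1.74 ± 0.15), and FANCF at 12.6 and 13.7 FPKM in shCtrl against 3.05 and 3.43 in NC (1.74 ± 0.13). Not called were, among others, FANCL (-0.01 ± 0.14), MUS81 (-0.04 ± 0.13), MRE11 (0.09 ± 0.16) and RAD51C (-0.10 ± 0.10), with signs that changed in 2 of these 4, FANCL and RAD51C, when a trend on GC content and length was removed. Of the S phase list 22 of 25 genes were higher in shCtrl, and of the G2/M list 14 were higher and 4 lower, among them MKI67 (-1.42).

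**Figure D3:**
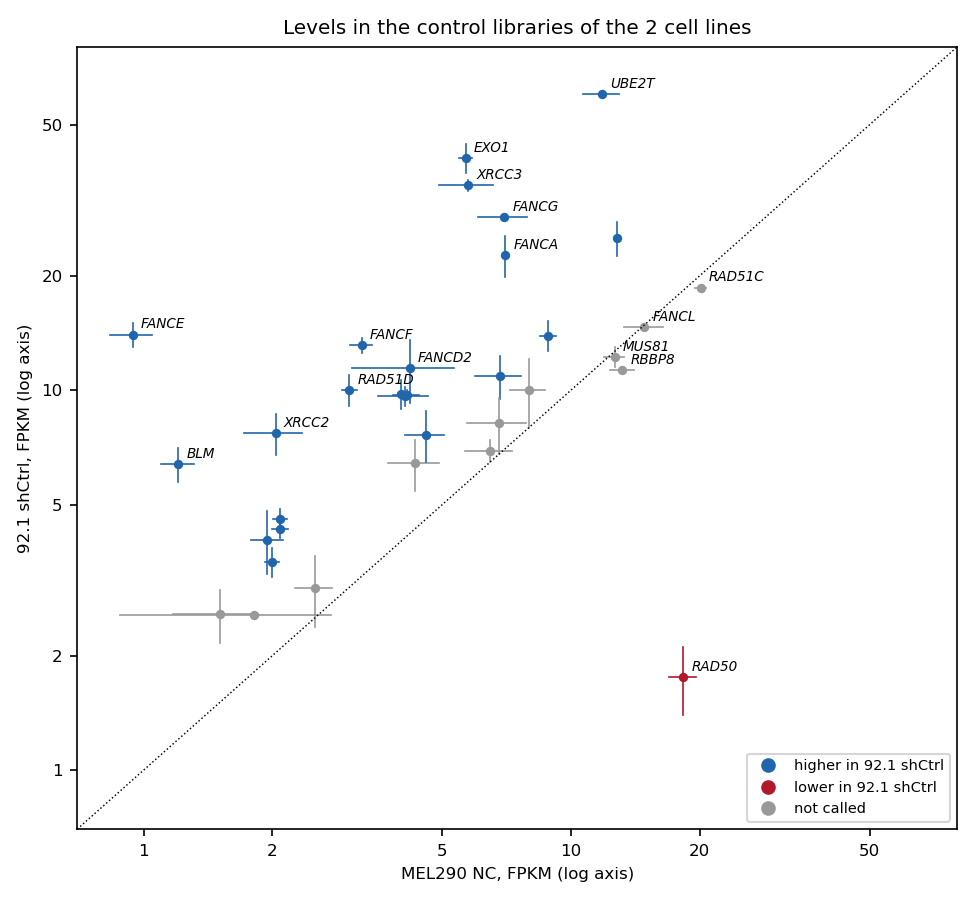
Mean FPKM of each of the 34 genes in 92.1 shCtrl against MEL290 NC, both on log axes, with bars from the lower to the higher of the 2 libraries and a dotted line where the levels are equal. There 22 genes (blue) were called higher in shCtrl, 11 (grey) were not called, and RAD50 (red) lies alone far below the line, at 1.76 FPKM in shCtrl and 18.3 FPKM in NC.

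For the genes called with A3B OE, the raised level in MEL290 stayed below that of 92.1 in some and reached it in others, and these values are set side by side without a test, since the comparisons share the NC libraries. XRCC3 reached 11.4 ± 1.55 FPKM (mean ± SD, n = 2) against 34.6 ± 1.55 in shCtrl, UBE2T 19.5 ± 0.791 against 60.3 ± 0.894, and FANCE 2.003 ± 0.00678 against 14.0 ± 1.42. EME1 reached 10.1 ± 1.09 against 9.73 ± 0.370, BRIP1 4.56 ± 0.274 against 4.04 ± 1.07, FANCI 29.0 ± 5.49 against 25.1 ± 3.57, and BRCA1 14.3 ± 1.77 against 10.9 ± 1.97. The first 3 remained lower in both A3B OE libraries than in both shCtrl libraries.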

How the data were processed

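Per the methods and labels, RNA was extracted with Trizol, libraries were made with the NEBNext Ultra kit, and the authors used STAR for alignment to GRCh38 and Cufflinks for FPKM, over genes of Ensembl release 75. The deposited files hold 1 FPKM per symbol and library, and some symbols are newer than that release. The authors' Cuffdiff calls were not used, and FPKM is no count, so no count test was run.

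A pseudocount of 1 was added before taking log2. Limma 3.58.1 (lmFit and eBayes with trend, R 4.3.3) was fitted to every gene that reached 1 FPKM in 2 or more of the compared libraries, within each cell line, between the controls, and over all 8 libraries for the difference. P-values were adjusted over all genes fitted by the Benjamini-Hochberg method, with calls at 0.05. Depth is rough, from low FPKM values of single-transcript genes, so no counting error is given, and an FPKM of 0 can be a failed estimate. Gene positions and exon overlap came from GENCODE release 44.

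The 34 genes and the other lists were chosen with earlier results of these data known, and 1 gene of the other lists is not reported here. All 34 are named, and of other lists at most 3 called genes per direction. Same-numbered libraries deviated together at a correlation of 0.19 in 92.1 and -0.03 in MEL290, and the main fits did not take replicate numbers as pairs. With the replicate block 37 genes were called in 92.1 rather than 1, none of them among the 34. In MEL290 the block gave 1521 genes rather than 2065. Alternatives were the trend, scaling, filter, pseudocount, minimum fold change, joint fit, replicate block and each library left out. The GC and length trend and the omission of overlapping genes were added after seeing the data.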

Additional observations from a re-analysis of the deposited data

Results flagged for a closer look

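For 4 genes the changes differed between the cell lines by the test of the difference itself, taken as the A3B OE minus NC change in MEL290 less the shA3B minus shCtrl change in 92.1. All 4 were above 0, where 3.06% of all genes tested were above 0 and called, and 1.35% below. The count of 4 changed with the processing, as given in the next section. XRCC3 differed by 1.03 on the log2 scale (limma, adjusted p = 0.0332), with both A3B OE libraries above both NC libraries and both shA3B libraries below both shCtrl libraries. Relative to the level of A3B these 2 differences of XRCC3 had the same sign, but the one in 92.1 (-0.15 ± 0.13) was not called. In 92.1, 13.3% of all genes tested were below without overlap. FANCA differed by 1.05 (adjusted p = 0.0456), with 2 of 2 A3B OE libraries higher and overlapping groups in 92.1. BLM differed by 0.94 (adjusted p = 0.0401), again with overlapping groups in 92.1. EME1 differed by 0.88 (limma, adjusted p = 0.0467), and it was higher without overlap in shA3B as well as in A3B OE. Of all genes tested, 15.3% and 31.5% were higher without overlap in these 2 comparisons, and EME1 was not called in 92.1. With each effect taken as A3B-high minus A3B-low, the difference between the lines did not pass for XRCC3 and FANCA (0.73 and 0.69, limma, adjusted p = 0.0796 and 0.131). It passed for BLM and EME1 (1.04 and 1.35, adjusted p = 0.0251 and 0.0130). A3B rose in one line and fell in the other, and the lines also differ in vector and in the level of these genes, which cannot be told apart here. XRCC3, FANCA and EME1 share 34.2%, 27.4% and 23.2% of their exon bases with another gene.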

How the results depend on the processing

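The count of 14 genes called in MEL290, all higher, was 4 with no filter (3.53% of all genes), 2 with a minimum log2 fold change of 1 (1.94%), 11 with quantile normalization (9.79%), and 2 to 18 with each library left out (4.14% to 10.1%). The median of all 34 genes was 0.69 with a pseudocount of 0.1 and 0.40 to 0.60 with each library left out, and that of 92.1 was 0.05 to 0.14 with each left out. The count of 0 in 92.1 held under every alternative run, but very few genes of any kind were called there. The share of all genes was 0.00862% in the main fit and at most 0.319%, with the replicate block. A count of 0 that holds therefore says little about the 34 genes. Between the controls, 15 genes were called with a minimum log2 fold change of 1, against 40.1% of all genes. The count of 4 with a different effect was 1 with quantile normalization (2.95% of all genes above 0 and called) and 0 with no filter (1.43%). It was 2 with a pseudocount of 0.1 (2.28%) and 1 with the replicate block (1.24%). With each effect taken as A3B-high minus A3B-low, the difference between the lines was called for 7 genes (3.59%). The count was 9 with the GC and length trend removed (4.69%), and it fell with each library left out. The cause was not tested. The replicate block also ended the calls of RAD51D and FANCE in MEL290, and quantile normalization those of RAD51D, RAD54L and FANCE.

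Log2 differences that changed sign belonged to genes that were not called in the comparison where the sign changed. In MEL290, FANCF was 1.448e-05 with upper quartile scaling and SLX4 -0.076 with quantile normalization. In 92.1, upper quartile scaling gave 0.013 for RAD51D, 0.032 for FANCG and 0.017 for SLX4, and quantile normalization gave 0.017 for FANCG. Removing the GC and length trend gave -0.010 for BRCA1, -0.022 for MRE11, -0.021 for EXO1, -0.017 for BLM, -0.018 for FANCD2, 0.065 for FANCG and 0.053 for SLX4 in 92.1, and 0.092 for RAD51C, 0.036 for RBBP8 and 0.19 for FANCL between the controls.

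With each library left out in turn, the log2 difference in MEL290 ran from -0.019 to 0.13 for PALB2, -0.037 to 0.21 for RAD54B, -0.23 to 0.097 for MRE11, -0.062 to 0.14 for RAD50, -0.0087 to 0.39 for FANCC, -0.11 to 0.066 for FANCF, -0.064 to 0.22 for FANCL, -0.073 to 0.095 for SLX4 and -0.021 to 0.17 for MUS81. In 92.1 it ran from -0.12 to 0.22 for BRCA1, -0.11 to 0.41 for BRCA2, -0.14 to 0.11 for RAD51D, -0.017 to 0.30 for XRCC2, -0.023 to 0.52 for RAD51AP1, -0.026 to 0.13 for RAD54L, -0.0057 to 0.17 for MRE11, -0.091 to 0.15 for EXO1, -0.20 to 0.43 for DNA2, -0.076 to 0.18 for BLM, -0.31 to 0.13 for FANCC, -0.076 to 0.12 for FANCE, -0.10 to 0.019 for FANCF, -0.089 to 0.086 for FANCG, -0.24 to 0.27 for FANCD2 and -0.091 to 0.070 for SLX4. Between the controls it ran from -0.070 to 0.92 for BRCA2, -0.064 to 0.25 for MRE11, -0.15 to 0.13 for FANCL, -0.055 to 0.41 for FAAP24 and -0.12 to 0.034 for MUS81. These libraries are 2 per group, and a lone library left in a group was assumed to vary like the other group. The lowest means in NC, whose libraries were also the shallowest, were 0.943 FPKM for FANCE and 1.204 FPKM for BLM, and the effect of depth on them was not measured.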
